A study of Homo sapiens with 20 samples.

Results

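The regions described here are the 670 of 8286 ATACseq regions (8.09%) that the deposited tables place on human chromosome 6, from chr6:1335316 to chr6:170296121 (hg38). They were chosen by chromosome alone. ATACseq marks open chromatin, the stretches of DNA that a transposase can cut and tag, and the value of a region is the mean number of sequenced fragments over bins of 32 bp, called signal below. The regions were 200 to 1608 bp long with a median of 478 bp, against 465 bp for all regions. No gene was listed for 155 of them, 1 gene for 311 and several genes for 204, in all 532 different gene symbols.

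The libraries came from HL60, an established acute myeloid leukemia cell line that can be driven towards neutrophils with all-trans retinoic acid (ATRA). The study compared cells carrying Cas9 alone (Cas9 control) with cells in which hexokinase 3 was targeted by a lentiviral CRISPR construct (HK3-null), each kept for 36 h in 1 µM ATRA or in 0.01% DMSO. Each of the 4 groups had 2 ATACseq and 3 RNAseq libraries, 8 and 12 in all, and both genotypes carried Cas9 and its puromycin selection. All HK3-null libraries bear the label KO-2G, which stands for 1 knockout line, and the methods describe outgrowth of single cells, so the genotype cannot be told apart from the line. The methods call the libraries of a condition biological replicates but do not say what separated them, and the p-values therefore measure only the spread between these libraries.

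HK3 transcripts did not fall with the HK3-null label. The normalized count of HK3 was 90, 65 and 105 in Cas9 control DMSO and 344, 302 and 346 in HK3-null DMSO, and in ATRA it was 1305, 1298 and 1850 against 1384, 1285 and 1975. A count over a whole gene does not check a small edit, so HK3-null is used below as the label of these libraries. Myeloid markers were abundant in every RNAseq library (MPO 440811 to 661371, PRTN3 76693 to 104309 and SPI1 6428 to 12948 normalized counts), while the T cell markers CD3D, CD2 and LCK did not exceed 2 and CD3E had 1 to 12. Of the B cell markers, MS4A1 had 0 counts in every library and CD79A had 45 to 102. The ATACseq tables had been reduced by the authors to an equal number of tags and give no read counts, so the depth behind a single signal is unknown. Cas9 control ATRA replicate 2 stood below the other libraries, with a median log2(signal + 1) of 4.29 over the autosomes other than 5, 6, 8, 13 and 15, where the other 7 libraries lay between 4.54 and 4.85. Among the RNAseq libraries, Cas9 control DMSO replicate 1 had the most rows with a count above 0, at 16821, where the others had 15090 to 15867.

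Chromosome 6 carries the HLA complex on its short arm. Its class I genes encode the molecules that show peptides from inside the cell to killer T cells, its class II genes those that show ingested peptides to helper T cells, and between them lie the class III genes, among them the tumor necrosis factor (TNF) family, complement and heat shock genes. Nearer the tip of the short arm lies the main cluster of replication-dependent histone genes, which is interspersed with many tRNA genes. Genes of myeloid and leukemia biology are spread over both arms, such as the growth regulators PIM1 and CCND3 and the transcription factors MYB and RUNX2.

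The RefSeq promoter windows (GRCh38.p14, 250 bases before to 50 after the start) below are shown because the chromosome 6 regions that overlap them had some of the widest genotype differences, in both directions, or lie in the TNF cluster. Capitals mark the NF-Y box CCAAT, the TATA box letters TATAAA, the ETS core GGAAGT and the PU.1-like site GAGGAA, each searched on both strands, so that their reverse complements are also in capitals. HIST1H3C (RefSeq H3C3, chr6:26045134-26045433, plus strand) and HIST1H2BB (H2BC3, chr6:26043664-26043963, minus strand) are histone H3 and H2B genes in regions with far higher signal in HK3-null. HIST1H1B (H1-5, chr6:27867539-27867838, minus strand) and HIST1H4L (H4C13, chr6:27873485-27873784, minus strand) are linker histone and histone H4 genes in regions with far lower signal. ZSCAN12 (chr6:28399698-28399997, minus strand) encodes a zinc finger protein and TNF (chr6:31575315-31575614, plus strand) the inflammatory cytokine.
H3C3: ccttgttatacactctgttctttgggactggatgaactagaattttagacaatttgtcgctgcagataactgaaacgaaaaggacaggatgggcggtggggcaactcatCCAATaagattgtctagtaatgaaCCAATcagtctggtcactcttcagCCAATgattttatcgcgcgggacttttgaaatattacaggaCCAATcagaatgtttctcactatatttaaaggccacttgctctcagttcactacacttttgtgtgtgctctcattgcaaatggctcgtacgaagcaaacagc
H2BC3: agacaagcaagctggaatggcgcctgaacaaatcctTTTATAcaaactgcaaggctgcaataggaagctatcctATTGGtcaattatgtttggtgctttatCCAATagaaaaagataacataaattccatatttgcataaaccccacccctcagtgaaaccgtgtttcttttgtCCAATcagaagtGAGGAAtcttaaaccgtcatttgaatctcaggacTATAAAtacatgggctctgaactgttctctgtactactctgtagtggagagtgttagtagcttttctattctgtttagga
H1-5: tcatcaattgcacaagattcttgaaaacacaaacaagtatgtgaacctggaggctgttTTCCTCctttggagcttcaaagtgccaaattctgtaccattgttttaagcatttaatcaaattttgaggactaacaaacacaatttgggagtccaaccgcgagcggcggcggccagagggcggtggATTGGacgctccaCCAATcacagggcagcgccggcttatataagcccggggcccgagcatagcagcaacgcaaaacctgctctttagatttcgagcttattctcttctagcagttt
H4C13: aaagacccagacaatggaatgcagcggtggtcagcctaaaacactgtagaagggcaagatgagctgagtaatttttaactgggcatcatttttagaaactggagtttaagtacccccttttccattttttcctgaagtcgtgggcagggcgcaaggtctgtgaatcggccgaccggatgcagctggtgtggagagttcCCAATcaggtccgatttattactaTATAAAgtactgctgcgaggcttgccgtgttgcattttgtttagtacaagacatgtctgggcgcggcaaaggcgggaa
ZSCAN12: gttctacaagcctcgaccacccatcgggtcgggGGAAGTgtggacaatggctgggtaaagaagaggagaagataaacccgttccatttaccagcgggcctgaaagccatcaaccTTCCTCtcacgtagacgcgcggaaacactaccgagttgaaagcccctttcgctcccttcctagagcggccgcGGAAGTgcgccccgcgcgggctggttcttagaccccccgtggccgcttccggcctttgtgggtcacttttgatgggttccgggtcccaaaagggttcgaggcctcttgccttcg
TNF: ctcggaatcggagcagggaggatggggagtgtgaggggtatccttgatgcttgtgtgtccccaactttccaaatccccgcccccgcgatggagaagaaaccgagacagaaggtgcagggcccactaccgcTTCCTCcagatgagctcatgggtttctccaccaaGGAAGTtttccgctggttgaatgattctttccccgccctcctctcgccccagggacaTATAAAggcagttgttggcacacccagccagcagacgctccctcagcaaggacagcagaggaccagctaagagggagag

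Promoter windows of 86 genes overlapped a chromosome 6 region. The first share below is of these 86 genes with the motif in any overlapping window, the second of all 35116 single windows. A gene with several windows has more chances of a match, so the shares are not like for like. CCAAT was present in 40.7% and 34.6%, TATAAA in 16.3% and 11.5%, GGAAGT in 18.6% and 22.8%, and GAGGAA in 38.4% and 27.9%. Of the other motifs searched, the GC box GGGCGG was present in 68.6% against 44.9%, an NF-kB-like motif in 75.6% against 58.7%, the AP-1 site TGACTCA in 5.81% against 4.95%, the C/EBP-like TTGCNNAA in 8.14% against 10.5% and the nuclear receptor motif AGGTCA in 5.81% against 13.8%. The H3C3 window holds CCAAT at 4 places and the H2BC3 window at 3, while the ZSCAN12 and TNF windows hold none. A match of letters does not show binding.

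The first comparison asked how ATACseq signal differed between the genotypes without differentiation. The amount of DNA of each chromosome was not measured, so a difference in signal may not reflect openness alone. In DMSO the signal of most chromosome 6 regions was higher in HK3-null. The median signal over the 670 regions was 19.8 and 21.8 in Cas9 control DMSO and 49.2 and 46.2 in HK3-null DMSO, and the median difference over regions was 1.14 on the log2(signal + 1) scale, where 1 unit is a change of 2-fold in signal + 1. The difference lay above 0 in 597 of the 670 regions. Over all 8286 regions the median difference was 0.41 and 53.7% lay above 0.

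A test was made for the 541 chromosome 6 regions whose mean signal passed the filter on low signal, and 129 were not tested. By limma with an adjusted p below 0.05 and a change of at least 1.5-fold, 392 regions were called higher (72.5% of those tested) and 55 lower (10.2%). Among all 6214 tested regions of the table, 42.7% were called higher and 43.9% lower in this comparison. Both HK3-null DMSO libraries lay above both Cas9 control DMSO libraries in 571 of the 670 regions and below them in 65, against 50.1% and 44.6% of all regions of the table. Chromosome 8 had a like median difference, 1.21 over 1154 regions with 768 called higher and 13 lower, whereas regions of chromosomes 5, 13 and 15 had medians of -1.59, -1.48 and -1.64. The difference between chromosomes was not tested.

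In ATRA the genotype difference is given as a description only, because the deposited table holds regions that the ratio of HK3-null to Cas9 control in ATRA had already selected. Every one of the 8266 regions for which that ratio is defined differed by at least 1.5-fold. On chromosome 6 the least of the rises was 1.77-fold and the least of the falls left a ratio of 0.418. The median signal was 18.8 and 14.1 in Cas9 control ATRA and 43.9 and 45.9 in HK3-null ATRA. A region absent from the table may have had equal signal in both genotypes, so the shares above describe selected regions and not the whole chromosome.

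The rise was spread along the chromosome. In bins of 10 Mb, the median difference in DMSO was above 0 in 17 of 18 bins (94.4%), and those 17 medians ran from 0.79 to 2.0. It was widest in bins 8 and 10 (70 to 80 Mb and 90 to 100 Mb), at 2.0 over 20 regions and 1.94 over 22. The signal itself was low there in Cas9 control, with medians of 11.5 and 10.7 in the DMSO libraries of bin 8, against 46.5 and 40.1 in HK3-null. The last bin, from 170 Mb, had 2 regions and a median of -0.64. The short arm, with 371 regions, had a median difference of 1.08, and the long arm, with 299, had 1.20.

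**Figure D1:**
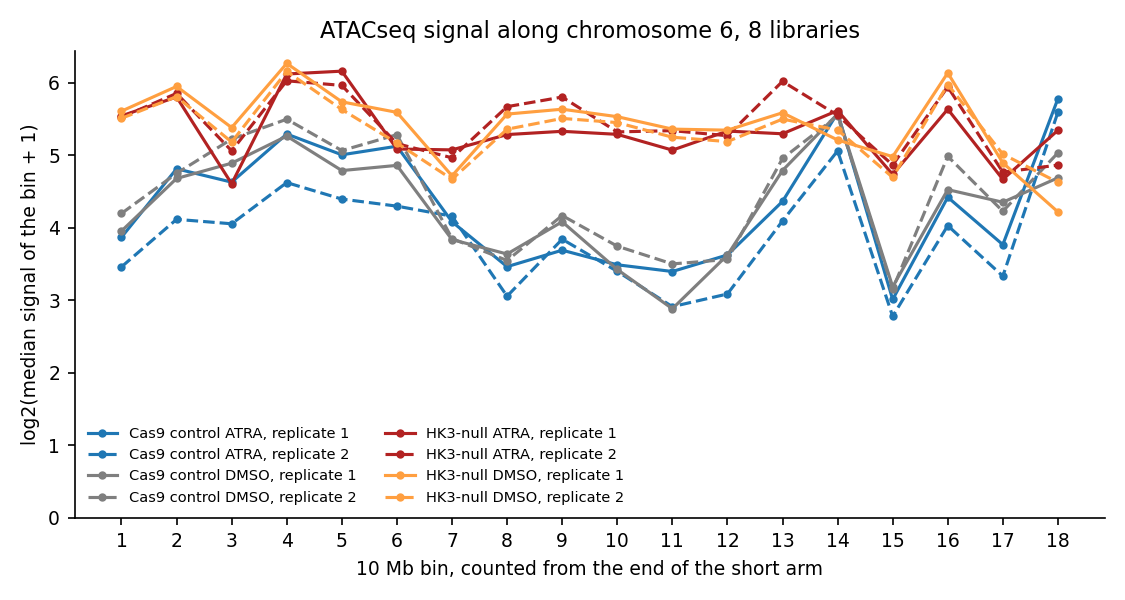
Median ATACseq signal of the chromosome 6 regions in each 10 Mb bin (x axis, numbered from the end of the short arm) as log2(median signal + 1) (y axis), 1 line for each of the 8 libraries. The 4 HK3-null lines lie above the 4 Cas9 control lines except in bins 3, 6, 14 and 18, where they overlap. Bin 18 holds 2 regions.

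Bin 3, from 20 to 30 Mb, had the widest range. Its median difference was 1.06, but its lower quartile was -1.76 and its upper quartile 2.27, and it held 17 of the 64 regions that were lower in HK3-null in both treatments. Of these 17 regions 15 lay among histone and tRNA genes, and the other 2 list SLC17A4, a phosphate transporter gene.

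**Figure D2:**
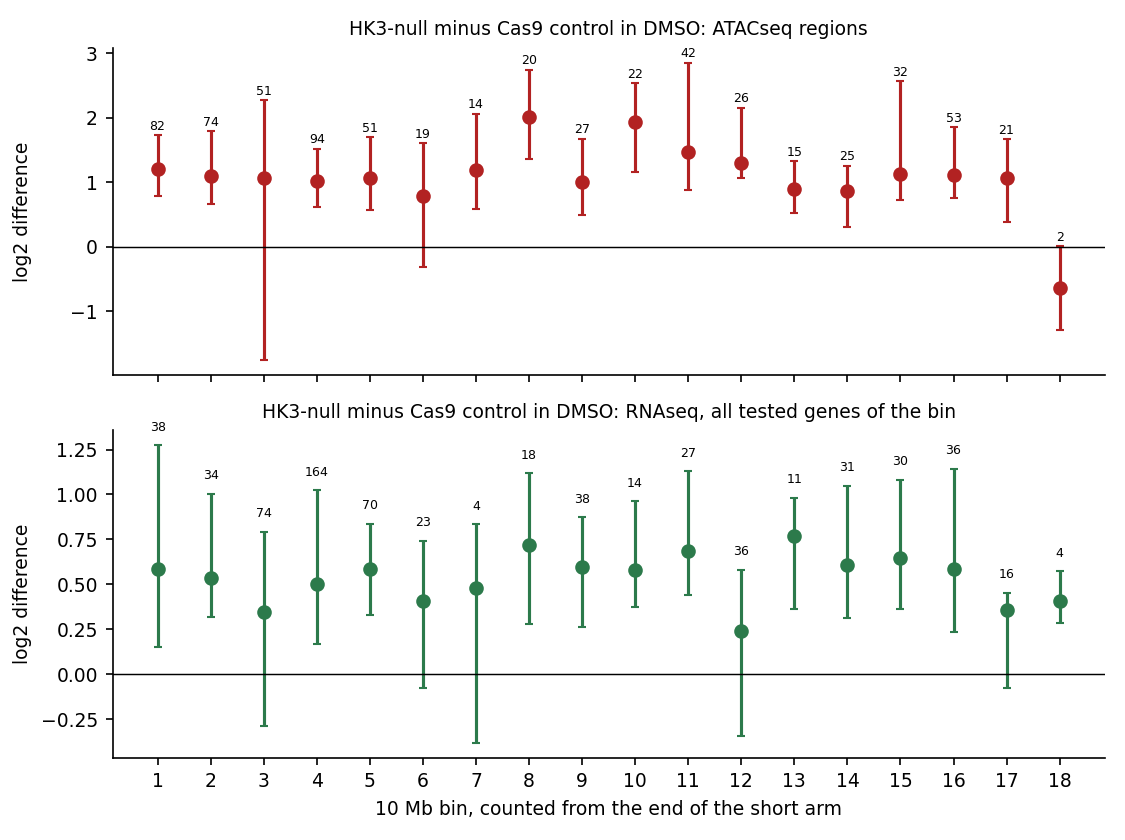
Difference between HK3-null and Cas9 control in DMSO for ATACseq regions (upper panel) and for all tested RNAseq genes (lower panel) in each 10 Mb bin, in log2 units (y axis). Points are medians, bars run from the lower to the upper quartile over regions or genes, and the number above each bar is its count. The ATACseq median is above 0 in 17 of 18 bins and the RNAseq median in all 18.

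The widest rises were at histone genes near 26 Mb. The region chr6:26045086-26045822, which holds the start of HIST1H3C, had a signal of 2.10 and 0 in Cas9 control DMSO, 1.12 and 2 in Cas9 control ATRA, 218 and 203 in HK3-null DMSO and 114 and 246 in HK3-null ATRA. Its difference in DMSO was 6.90 ± 0.44 (SE, limma, adjusted p = 2.23e-15). The neighbouring region chr6:26043213-26044090, at HIST1H2AB and HIST1H2BB, had 2.32 and 2.20 in Cas9 control DMSO, 1.33 and 1.83 in Cas9 control ATRA, 239 and 243 in HK3-null DMSO and 113 and 260.4 in HK3-null ATRA, a difference of 6.21 ± 0.38 (SE, limma, adjusted p = 5.83e-16). Another histone region, chr6:26216697-26217450 at HIST1H2BG and HIST1H2AE, was listed at 0 and 0 in Cas9 control DMSO, 0 and 1 in Cas9 control ATRA, 52 and 47.7 in HK3-null DMSO and 50.7 and 60.5 in HK3-null ATRA. All 3 were near the lowest signal in Cas9 control and far above it in HK3-null, and the libraries of the genotypes did not overlap. All 6 chromosome 6 regions below 27 Mb that list a histone gene were higher in HK3-null in both treatments, as were 89.1% of all chromosome 6 regions.

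No histone gene was listed for the other 3 of the 6 widest rises. The promoter region of ZSCAN12, chr6:28399325-28400089, had a signal of 1.44 and 0 in Cas9 control DMSO, 4.20 and 2.50 in Cas9 control ATRA, 57.1 and 45.6 in HK3-null DMSO and 30.4 and 40.4 in HK3-null ATRA, with a difference in DMSO of 5.06 ± 0.51 (SE, limma, adjusted p = 1.32e-10). The region chr6:28212416-28213302, which lists the zinc finger gene ZSCAN9 and the tRNA gene TRS-GCT5-1, rose by 5.0, from 1.56 and 0 to 47.1 and 53.7. On the long arm the region chr6:141380998-141381511, with no gene listed, had 2.38 and 1.30 in Cas9 control DMSO and 88.9 and 74.8 in HK3-null DMSO, and its HK3-null ATRA libraries differed from each other (25.7 and 109). Altogether 42 of the 670 regions had a signal under 5 in both Cas9 control DMSO libraries and over 20 in both HK3-null DMSO libraries. No gene is listed for 13 of these 42. The reverse held for 10 regions, 8 of them in the histone and tRNA interval described below. The same counts over all regions of the table are not given here.

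The exceptions to the rise were regions with lower signal in HK3-null in both treatments, 64 of the 670, with 41 on the short arm and 23 on the long arm. Of these, 56 were tested and 54 were called lower in DMSO. The 64 were picked by the sign of the same DMSO values, so this count follows largely from the choice and is no separate result. Among all tested regions, not picked by sign, 43.9% were called lower in DMSO. The differences in DMSO over the 64 ran from -5.63 to -0.55, with a median of -2.25. A further 9 regions were lower in DMSO and higher in ATRA, and no region had the reverse pattern. The median signal of the 64 was 59.4 and 64.1 in Cas9 control DMSO and 9.60 and 11.6 in HK3-null DMSO, so these regions mostly had high signal in Cas9 control. Of the 64 regions 18 (28.1%) and of the 597 rising regions 142 (23.8%) lay within 1 kb of an annotated transcript start, and the median GC content was 48.0% and 46.8%. By GENCODE v44, the midpoint of 30 of the 64 (46.9%) and 306 of the 597 (51.3%) lay in an intron, of 10 (15.6%) and 78 (13.1%) in an exon, and the others lay between genes.

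Of the 64 exceptions, 15 lay between chr6:27864952, where the first region listing HIST1H2AL begins, and 29 Mb. This histone and tRNA interval was set after the values were seen and is described without a test. It holds 19 regions in all, with a median difference in DMSO of -2.79. All 5 of its histone regions and 10 of its 12 regions listing a tRNA gene were lower in both treatments. At the histone genes HIST1H2AL, HIST1H1B, HIST1H3I and HIST1H4L the region chr6:27867172-27867642, over the H1-5 promoter printed above, had a signal of 74.6 and 64.6 in Cas9 control DMSO, 75.1 and 50 in Cas9 control ATRA, 1.09 and 2 in HK3-null DMSO and 1.79 and 1 in HK3-null ATRA. Its difference in DMSO was -4.81 ± 0.46 (SE, limma, adjusted p = 3.63e-11). The region over the H4C13 promoter, chr6:27873088-27873771, fell from 69.3 and 73.5 to 3.32 and 2.12 (-4.30), and chr6:27866153-27867098 fell from 66.3 and 57.5 to 3.38 and 2.54 (-3.99). The histone cluster thus held both the widest rises and some of the widest falls, the former near 26 Mb and the latter from chr6:27864952 on.

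The single widest fall was at a threonine tRNA gene. The region chr6:28489315-28489650, listing TRT-CGT1-1, had a signal of 51.2 and 46 in Cas9 control DMSO, 37.6 and 38.4 in Cas9 control ATRA, 0 and 0 in HK3-null DMSO and 4.80 and 2.86 in HK3-null ATRA. A second region listing this gene, chr6:28491341-28491733, had 44.2 and 57.3 in Cas9 control DMSO and 1.70 and 1 in HK3-null DMSO, a difference of -4.47 ± 0.53 (SE, limma, adjusted p = 4.41e-09). Neither region's HK3-null values overlapped those of Cas9 control. Of the 723 gene and region pairs whose gene has coordinates in RefSeq, 98.3% lay within 100 kb of each other and 6 had the gene on another chromosome. The files and RefSeq number some tRNA genes differently, so tRNA names are given as in the files.

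Falls away from this interval were scattered over both arms. The region chr6:13445027-13445292, in an intron of GFOD1, had 38.9 and 38.8 in Cas9 control DMSO, 32.9 and 19.5 in Cas9 control ATRA, 0 and 1 in HK3-null DMSO and 2.50 and 0 in HK3-null ATRA, but its mean signal did not pass the filter, so it was not tested. On the long arm the 1319 bp region chr6:165183667-165184986, 66143 bp from the nearest transcript start, had 159 and 168 in Cas9 control DMSO, 143 and 114 in Cas9 control ATRA, 7.73 and 11 in HK3-null DMSO and 11.3 and 13 in HK3-null ATRA, a difference in DMSO of -4.01 ± 0.32 (SE, limma, adjusted p = 7.09e-13). On the short arm chr6:16849883-16850325, which lay between genes, had 30.6 and 42.1 in Cas9 control DMSO and 0 and 4.14 in HK3-null DMSO. The other exceptions list, among others, DTNBP1, KIF6, PKIB, RPS6KA2 and RNASET2, with differences in DMSO of -3.55, -3.06, -3.31, -3.32 and -3.68 for the region with the widest fall at each gene. The RNASET2 region did not pass the filter and was not tested.

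**Figure D3:**
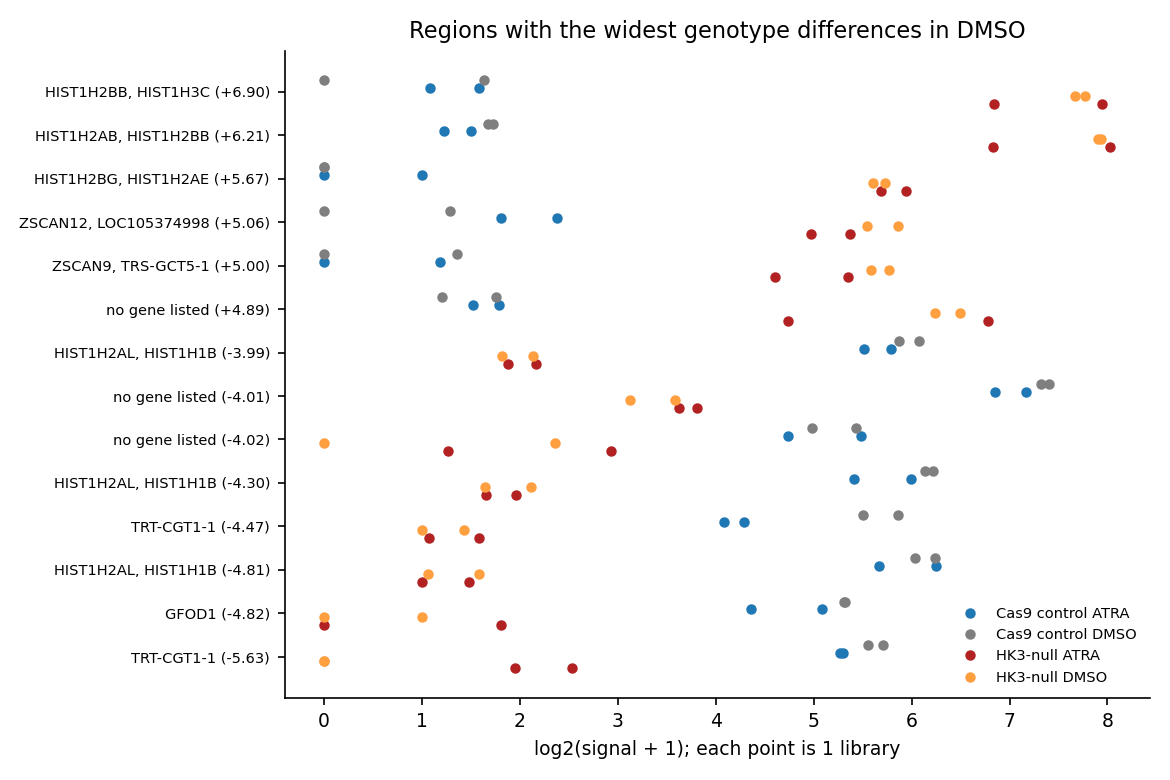
Signal of the 6 widest rises and 8 widest falls in DMSO as log2(signal + 1) (x axis), 1 point for each library, coloured by group, with the first genes listed and the difference in DMSO in brackets. In each of the 14 regions all 4 HK3-null points lie on one side of all 4 Cas9 control points.

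The HLA interval from 28 to 34 Mb held 57 regions. Their median difference in DMSO was 0.82, with 44 of 57 above 0, against 1.18 over the other 613 regions, with 553 above 0. Of the 53 tested regions of the interval, 29 were called higher and 12 lower, and of the 488 tested outside it 363 and 43. The difference between these shares was not tested. The interval had more signal to begin with, with medians of 40.2 and 46.0 in Cas9 control DMSO against 18.7 and 20.3 outside. Most of the falls lay at its edge towards the histone genes. Of the 43 regions between 29 and 34 Mb, 40 had a difference above 0 in DMSO, with a median of 1.01. Among these 43 regions 40 were tested, and 25 were called higher and 3 lower.

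**Figure D4:**
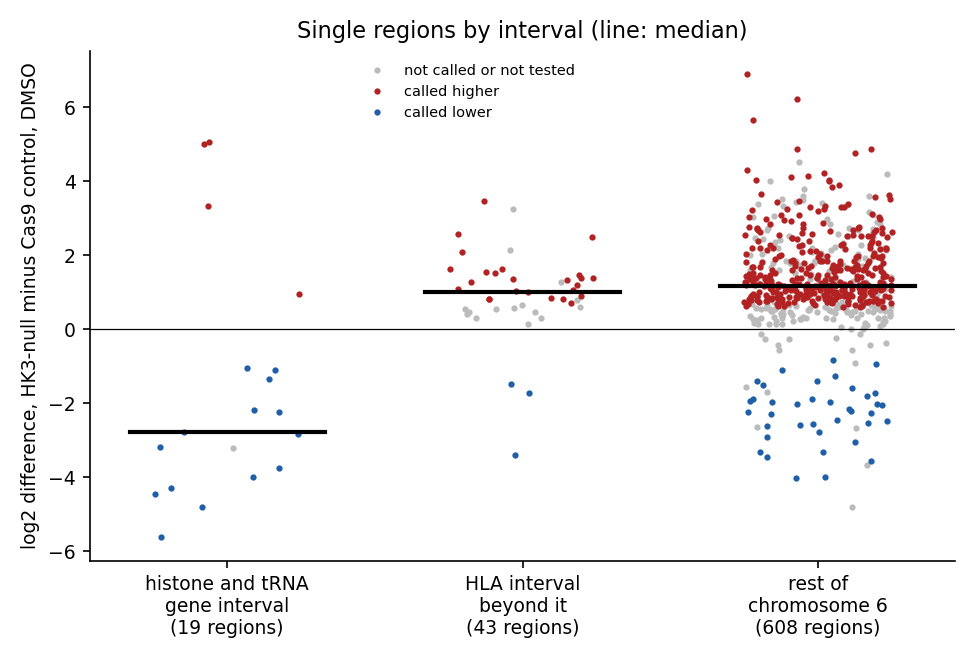
Difference between HK3-null and Cas9 control in DMSO (y axis, log2 units) for single regions of the histone and tRNA interval, from 29 to 34 Mb (the HLA interval beyond it) and from the rest of chromosome 6, with the line at the median. Red points were called higher, blue points lower, and grey points were not called or not tested. The first group centres on -2.79, the second on 1.01 and the third on 1.18.

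The TNF cluster lies in the class III part. TNF encodes tumor necrosis factor, LTA and LTB the related lymphotoxins, LST1 a protein of leukocytes, and NFKBIL1 a protein related to NF-kB inhibitors. Of the 6 regions that list a gene of this cluster, 6 were called higher in DMSO and none lower, where 72.5% of the tested chromosome 6 regions were called higher. The widest difference was at chr6:31578604-31579450, between LTB and LST1, with a signal of 10.6 and 15.5 in Cas9 control DMSO, 2.28 and 2.44 in Cas9 control ATRA, 134 and 175 in HK3-null DMSO and 45.3 and 64.9 in HK3-null ATRA and a difference of 3.48 ± 0.36 (SE, limma, adjusted p = 3.46e-10). The region over the TNF promoter, chr6:31575321-31575879, had 114 and 119 in Cas9 control DMSO, 62.3 and 41.6 in Cas9 control ATRA, 220.4 and 280.2 in HK3-null DMSO and 178 and 159 in HK3-null ATRA and differed by 1.09 ± 0.28 (SE, limma, adjusted p = 8.35e-04). Both regions had more signal in DMSO than in ATRA within each genotype.

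The other 4 regions of the cluster differed less. The difference in DMSO was 1.39 ± 0.34 (SE, limma, adjusted p = 4.02e-04) for chr6:31568646-31569060, which lists LTA and TNF, and 1.37 ± 0.34 (SE, limma, adjusted p = 4.76e-04) for chr6:31592626-31593199 at LST1 and NCR3. For chr6:31580775-31581272 it was 0.82 ± 0.28 (SE, limma, adjusted p = 0.00862), and for chr6:31558184-31559530, at NFKBIL1 and LTA, 0.72 ± 0.28 (SE, limma, adjusted p = 0.0171). The last of these had the highest signal of the cluster, 341 and 385 in Cas9 control DMSO, 174 and 147 in Cas9 control ATRA, 575 and 616 in HK3-null DMSO and 289 and 387 in HK3-null ATRA. It lost its call when any of the 4 DMSO libraries was left out, and chr6:31580775-31581272 when any of 3 was.

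Of the 5 regions that list a complement, heat shock or other class III gene, 3 were called higher in DMSO, where 72.5% of the tested chromosome 6 regions were. The region over the promoter of HSPA1B, which lists HSPA1A as well (both encode nearly identical inducible HSP70 chaperones), had 187 and 200 in Cas9 control DMSO, 211 and 141 in Cas9 control ATRA, 563 and 581 in HK3-null DMSO and 443 and 597 in HK3-null ATRA, and differed by 1.56 ± 0.28 (SE, limma, adjusted p = 9.30e-06). The region at BAG6, a chaperone of newly made proteins, differed by 1.64 ± 0.38 (SE, limma, adjusted p = 2.43e-04), and that in an intron of the complement gene C2 by 1.06 ± 0.37 (SE, limma, adjusted p = 0.0083). The promoter region of PBX2, a homeobox factor, had 99.9 and 148 in Cas9 control DMSO and 173 and 184 in HK3-null DMSO and was not called (adjusted p = 0.104, limma). The C2 region lost its call without either of 2 DMSO libraries.

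Few of the regions list an HLA gene. Of the 4 that list a class I or MIC gene, chr6:30496560-30497043 near HLA-E, whose product is read by natural killer cells, rose from 34.2 and 26.8 to 59.5 and 64.3 (1.01 ± 0.32, SE, limma, adjusted p = 0.0041). The region of MICB, a stress-induced ligand of natural killer cells, rose from 15.2 and 14.9 to 38.8 and 33.5 (1.21 ± 0.35, SE, limma, adjusted p = 0.00218). The HLA-E call was lost without either of 2 DMSO libraries. The second HLA-E region and that of MICA were not called, with differences of 0.30 and 0.15. The single class II region, at the start of HLA-DMB, had 59.7 and 85.4 in Cas9 control DMSO and 111 and 87.2 in HK3-null DMSO and was not called.

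The second comparison asked what ATRA did to these regions in each genotype. It uses the ATRA libraries on which the table was selected, and the adjusted p-values below carry that limit. In Cas9 control 13 of 541 tested regions were called higher with ATRA (2.40%) and 107 lower (19.8%), against 2.54% and 15.6% of all tested regions. In HK3-null 23 were higher (4.25%) and 43 lower (7.95%), against 5.04% and 11.8%. The median difference was -0.32 in Cas9 control and -0.02 in HK3-null. Both counts in Cas9 control moved with the scale of its libraries. With each library centred on the autosomes other than 5, 6, 8, 13 and 15, 27 regions were called higher and 87 lower in Cas9 control, with a median of -0.08, and 39 and 50 in HK3-null. Without Cas9 control ATRA replicate 2, the low library, 47 regions were called lower in Cas9 control. The same count was 47 without Cas9 control DMSO replicate 2 and 60 without replicate 1 of that group, and without Cas9 control ATRA replicate 1 only 5 were called higher. In HK3-null, 9 were higher and 13 lower without DMSO replicate 1, 15 and 13 without DMSO replicate 2, and 25 lower without ATRA replicate 1.

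The ATRA calls of the genotypes overlapped. In total 8 regions were called higher and 25 lower in both genotypes, which is 8 of 13 and 8 of 23 of the higher calls and 25 of 107 and 25 of 43 of the lower calls, and no region was called in opposite directions. The region chr6:35224711-35225204, 81 bp from the start of SCUBE3, a secreted signalling protein, had a signal of 7.33 and 12 in Cas9 control DMSO, 44.4 and 31.1 in Cas9 control ATRA, 14.1 and 14.3 in HK3-null DMSO and 65.3 and 92.7 in HK3-null ATRA, a rise with ATRA of 1.87 ± 0.36 (SE, limma, adjusted p = 2.68e-04) in Cas9 control and of 2.37 ± 0.36 (SE, limma, adjusted p = 9.02e-06) in HK3-null. The region chr6:45681853-45682423, with no gene listed, rose with ATRA from 9.83 and 6 to 45.9 and 26.3 in Cas9 control and from 49.3 and 46.2 to 199 and 241 in HK3-null. The region chr6:37039525-37040293, also without a gene, rose by 2.33 ± 0.35 (SE, limma, adjusted p = 5.72e-06) in HK3-null, from 15.4 and 13.9 to 74.4 and 81.2. In these 3 regions ATRA and DMSO libraries of a genotype did not overlap.

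**Figure D5:**
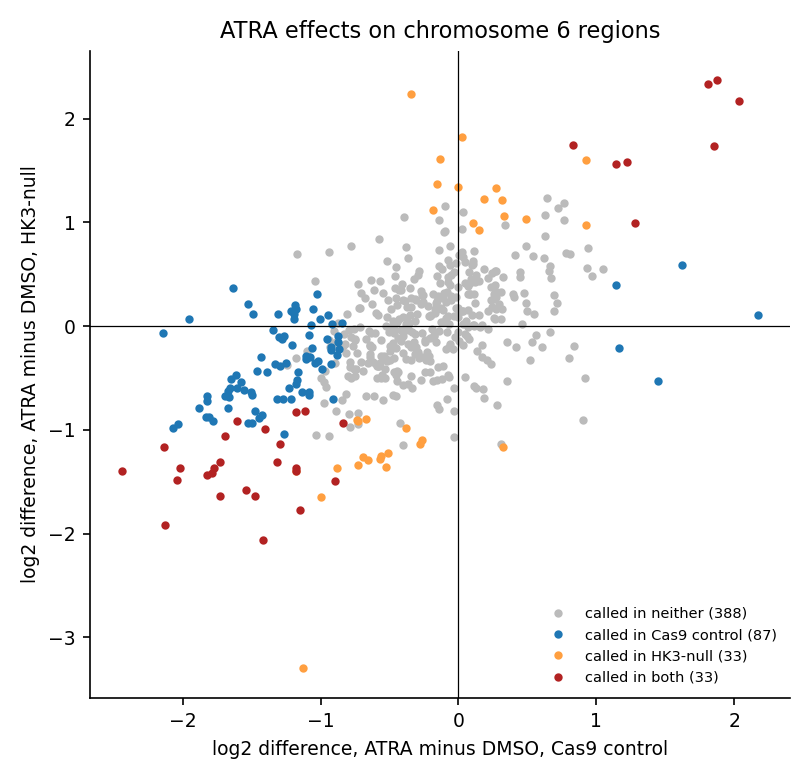
Difference between ATRA and DMSO in Cas9 control (x axis) and in HK3-null (y axis), in log2 units, for the 541 tested chromosome 6 regions. Of these, 388 were called in neither genotype, 87 in Cas9 control, 33 in HK3-null and 33 in both, and no region called in both lies in the upper left or lower right part.

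Further rises in Cas9 control were at chr6:36232146-36232526, listing BRPF3 and PNPLA1 (1.85 ± 0.38, SE, limma, adjusted p = 5.29e-04), and at chr6:149246741-149247166, listing the signalling adaptor gene TAB2. The latter went from 0 and 2.50 in DMSO to 11 and 4.92 in ATRA, so its rise of 2.17 rests on low signal. In HK3-null the tRNA region at TRT-CGT1-1 with the widest genotype fall rose with ATRA from 0 and 0 to 4.80 and 2.86, still below every Cas9 control library.

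Among falls with ATRA, the widest in Cas9 control was chr6:6891867-6892527, which lists uncharacterized LOC genes, at -2.44 ± 0.40 (SE, limma, adjusted p = 2.57e-05). The region chr6:7915402-7915845 of TXNDC5, a protein disulfide isomerase of the endoplasmic reticulum, had a signal of 53.1 and 67.6 in Cas9 control DMSO, 18.1 and 9.07 in Cas9 control ATRA, 119 and 130.3 in HK3-null DMSO and 58.1 and 51.9 in HK3-null ATRA, a difference of -2.13 in Cas9 control and of -1.17 in HK3-null. A neighbour of the first, chr6:6875878-6876123, went from 17.3 and 8.71 to 1.29 and 3 in Cas9 control and from 34 and 27 to 32.1 and 26.1 in HK3-null. The region chr6:145148241-145148862 fell in both genotypes, from 62.5 and 52.8 to 15.6 and 9.74 in Cas9 control and from 129 and 122 to 25.6 and 41.1 in HK3-null. The widest fall in HK3-null was at chr6:149961747-149961978 beside ULBP1, a stress-induced ligand of natural killer cells, with 38.4 and 29.3 in Cas9 control DMSO, 19.3 and 11.3 in Cas9 control ATRA, 23.3 and 21.9 in HK3-null DMSO and 4.71 and 0 in HK3-null ATRA, a difference of -3.30 ± 0.53 (SE, limma, adjusted p = 1.98e-05). The next, at chr6:14271045-14271547 of LINC01108, went from 102 and 77.9 to 16.2 and 26.1 in HK3-null, and chr6:28643256-28643751, a tRNA region, from 62.1 and 51.2 to 13.1 and 19.

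The difference between the ATRA effects of the genotypes was tested as an interaction. It passed an adjusted p below 0.05 in 1 region of 541 (0.185%) in the direction of a higher effect in HK3-null and in 0 in the other, against 0.177% and 0.0966% of all tested regions. The region, chr6:113486117-113486667, was chosen for this after its values were seen. It lies between genes, 44451 bp from the nearest transcript start, and had 54.5 and 54.8 in Cas9 control DMSO, 19.3 and 14.8 in Cas9 control ATRA, 32.9 and 27.6 in HK3-null DMSO and 36.9 and 41.6 in HK3-null ATRA, and its interaction was 2.0 ± 0.47 (SE, limma, adjusted p = 0.0463). In DMSO its signal was higher in Cas9 control and in ATRA it was higher in HK3-null.

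The RNAseq libraries gave a measure that the choice of regions had not used directly. Of the 532 gene symbols listed by chromosome 6 regions, 412 were in the RNAseq table and 249 were tested. In bulk cultures fewer cells of a kind and less RNA per cell cannot be told apart. In DMSO, limma with an adjusted p below 0.05 and at least 2-fold called 80 of the 249 higher in HK3-null (32.1%) and 15 lower (6.02%), against 11.1% and 8.21% of all 13256 tested genes. In ATRA it called 87 higher (34.9%) and 12 lower (4.82%), against 11.4% and 9.93%. The median difference over the 249 genes was 0.73 in DMSO and 0.79 in ATRA, where the median over all tested genes was 0.00 and 0.01.

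The rise in RNA was not limited to listed genes. Over all 668 tested genes of chromosome 6 the median difference in DMSO was 0.52, 541 of 668 lay above 0, and 136 were called higher (20.4%) and 27 lower (4.04%). The 423 of them that no region lists had a median of 0.44, with 58 called higher and 12 lower. Over all tested genes 11.1% were called higher and 8.21% lower. Of the 423 genes 333 lay above 0, where 50.1% of all tested genes did. Every one of the 18 bins had a median above 0, from 0.24 in bin 12 (110 to 120 Mb) to 0.77 in bin 13. In the histone and tRNA interval, where most regions fell, the median over 21 genes was 0.39. Of these 21 genes 2 were called higher and 3 lower, where 20.4% and 4.04% of the tested chromosome 6 genes were. From 29 to 34 Mb the median was 0.51 over 122 genes. Tested genes of chromosome 8 had a median of 1.10 and those of chromosomes 5, 13 and 15 medians of -0.75, -0.57 and -0.94.

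The tested genes were also grouped by the direction of the regions that list them, without a test of the difference between the groups. Of the 226 tested genes listed only by regions that were higher in both treatments, 76 were called higher and 7 lower in DMSO, with a median difference of 0.77. Of the 15 listed only by regions that were lower in both, 2 were called higher and 7 lower, with a median of -0.87. Among 141 tested regions that list a single tested gene (103 genes), 46 were called higher together with their gene, 4 were called higher while the gene was called lower, and 54 were called higher while the gene was not called. In 1 case region and gene were both called lower, and in 1 only the region was. Among the regions not called, the gene was called higher for 10, lower for 5 and not called for 20. Several regions can share a gene, so these counts are not of independent pairs.

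The widest RNA rises were in genes nearly silent in Cas9 control. Where a library is at 0 no log2 difference is given, since the deposited tables write 0 as the log2 of 0.001. The fit shares its spread over the 4 groups, so values of 0 in any group weigh on the p-values and on calls lost without a library. CNKSR3, a scaffold protein of Ras and sodium-channel signalling, had normalized counts of 1, 0 and 0 in Cas9 control DMSO and 159, 171 and 156 in HK3-null DMSO (limma, adjusted p = 2.14e-04), and each of its 3 regions was called higher, the widest by 3.30. FAM50B, an imprinted gene, had 3, 1 and 0 in Cas9 control DMSO and 91, 98 and 98 in HK3-null DMSO (limma, adjusted p = 0.0201), and its region chr6:3848787-3849530 went from 4.65 and 8.41 to 105 and 109.5 in signal. ZSCAN12, whose promoter region rose by 5.06, had 6, 1 and 1 in Cas9 control DMSO and 294, 270 and 200 in HK3-null DMSO (limma, adjusted p = 0.0229). In these genes the libraries of the genotypes did not overlap, but the calls for FAM50B and ZSCAN12 were lost in the fit without 1 and without any of 4 of the libraries.

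SERPINB6, an inhibitor of serine proteases in granulocytes, had 28, 4 and 7 in Cas9 control DMSO and 807, 852 and 818 in HK3-null DMSO, a difference of 6.48 ± 0.53 (SE, limma, adjusted p = 1.31e-06), and its region rose by 2.96. PRDM13, a transcription factor best known in neurons, had 3, 3 and 2 in Cas9 control DMSO and 187, 167 and 173 in HK3-null DMSO (limma, adjusted p = 0.038), a call lost without any of 8 libraries. Its DMSO counts did not overlap between the genotypes. In ATRA the widest rises also included IER3, an early response gene linked to survival, with 13, 3 and 9 in Cas9 control ATRA and 295, 269 and 213 in HK3-null ATRA and a difference of 5.19 ± 0.70 (SE, limma, adjusted p = 5.92e-05). TNF itself had 175, 160 and 90 in Cas9 control DMSO and 2262, 1839 and 1279 in HK3-null DMSO, and 54, 52 and 32 in Cas9 control ATRA and 1826, 1854 and 1075 in HK3-null ATRA, with differences of 3.68 ± 0.32 (SE, limma, adjusted p = 2.30e-06) in DMSO and 5.10 ± 0.32 (SE, limma, adjusted p = 1.44e-07) in ATRA. TNF thus fell with ATRA in Cas9 control, by 1.60 ± 0.32 (SE, limma, adjusted p = 0.00206) on the log2 scale, while in HK3-null the difference was -0.18 ± 0.32 and was not called. The difference between these effects, 1.42 ± 0.45 (SE, limma, adjusted p = 0.0825), did not pass the threshold without the replicate block. With the block, which pairs the RNAseq libraries by number, it was 1.42 ± 0.11 (SE, limma, adjusted p = 2.25e-05) and passed.

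Falls in RNA were fewer, and several lay at the exceptions. ENPP4, an ectonucleotidase, had 140, 160 and 160 in Cas9 control DMSO and 6, 7 and 9 in HK3-null DMSO, a difference of -4.40 ± 0.24 (SE, limma, adjusted p = 5.52e-08), and the region at its start, chr6:46129661-46130292, fell from 127 and 151 to 26.6 and 21.2 in signal. HSD17B8, a mitochondrial dehydrogenase of fatty acid synthesis, had 76, 74 and 95 in Cas9 control DMSO and 7, 14 and 6 in HK3-null DMSO (-3.28 ± 0.36, SE, limma, adjusted p = 1.54e-05), and the region it shares with RXRB and RING1 fell by 3.40, from 65.1 and 136 to 9.60 and 6.70. HIVEP2, a zinc finger transcription factor, had 287, 376 and 515 in Cas9 control DMSO and 27, 38 and 54 in HK3-null DMSO (-3.32 ± 0.37, SE, limma, adjusted p = 1.47e-05), with a region difference of -2.22. For LRRC1, a scaffold protein of cell polarity, counts were 101, 103 and 133 in Cas9 control DMSO and 11, 9 and 18 in HK3-null DMSO (-3.20 ± 0.32, SE, limma, adjusted p = 6.41e-06) and its region differed by -1.09.

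DST, a cytoskeletal linker, had 636, 865 and 697 in Cas9 control ATRA and 106, 111 and 106 in HK3-null ATRA, a difference in ATRA of -2.75 ± 0.11 (SE, limma, adjusted p = 4.89e-09), and is listed by 1 region called lower, 1 called higher and 1 not tested. ANKRD6, a regulator of Wnt signalling, fell in ATRA from 54, 64 and 60 to 20, 9 and 13 (-2.16 ± 0.48, SE, limma, adjusted p = 0.00235). ITPR3, a calcium channel of the endoplasmic reticulum, fell without a falling region. Its counts were 569, 560 and 534 in Cas9 control DMSO and 6, 3 and 4 in HK3-null DMSO (limma, adjusted p = 0.0174), while the only region that lists it had 32.5 and 45.9 in Cas9 control DMSO and 58.5 and 49.7 in HK3-null DMSO and was not called. In each of these genes the counts of the HK3-null libraries lay below those of all Cas9 control libraries of the same treatment.

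RNA of the genes at the widest region differences moved in part with them. HIST1H3C was listed at 0 in all 6 Cas9 control libraries and had 5, 3 and 12 in HK3-null DMSO and 4, 30 and 14 in HK3-null ATRA. HIST1H3I had 7, 4 and 8 in Cas9 control DMSO and 0, 0 and 0 in HK3-null DMSO (limma, adjusted p = 6.56e-07). These values of 0 are all the same entry and hold no spread, so this p-value overstates what such low counts can show. HIST1H2AL had 6, 10 and 7 in Cas9 control DMSO and 2, 1 and 0 in HK3-null DMSO, a call lost without any of 7 libraries. HIST1H1C went the other way from the only region that lists it, which was among the widest rises near 26 Mb. Its counts were 314, 207 and 341 in Cas9 control DMSO and 137, 133 and 159 in HK3-null DMSO. The difference of -0.98 ± 0.20 (SE, limma, adjusted p = 0.00153) is below the 2-fold limit. ZSCAN9 differed by 0.84 ± 0.10 (SE, limma, adjusted p = 2.93e-05) and GFOD1 by 0.09 ± 0.21 (SE, limma, adjusted p = 0.756), and neither was called. Histone genes have near-identical copies and their main transcripts carry no poly(A) tail, so their counts are uncertain. Of the 51 histone genes of the cluster in the table, 26 were tested, of which 3 were called higher and 2 lower in DMSO. Over all tested chromosome 6 genes, 20.4% were called higher and 4.04% lower in DMSO, and over all tested genes 11.1% and 8.21%.

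Among the HLA genes, all 8 class I and MIC genes were tested, with a median difference in DMSO of 0.80. HLA-E had 2528, 2744 and 2808 in Cas9 control DMSO and 7482, 7611 and 7101 in HK3-null DMSO (1.46 ± 0.06, SE, limma, adjusted p = 4.60e-09) and was the only 1 of the 8 past the 2-fold limit, while HLA-B had 15596, 15874 and 15951 in Cas9 control DMSO and 27362, 28633 and 27198 in HK3-null DMSO, a difference of 0.81 ± 0.05 (SE, limma, adjusted p = 9.89e-08). In ATRA, 4 of the 8 were called higher in HK3-null, where 22.5% of the tested chromosome 6 genes were. In DMSO 20.4% of the tested chromosome 6 genes were called higher and 4.04% lower. Of 13 class II genes 4 were tested, 1 called higher (HLA-DMB, 3, 5 and 2 in Cas9 control DMSO and 7, 6 and 9 in HK3-null DMSO) and 2 lower. HLA-DPB1 had 59, 59 and 55 in Cas9 control DMSO and 0, 2 and 0 in HK3-null DMSO and HLA-DOB 27, 36 and 22 in Cas9 control DMSO and 2, 1 and 2 in HK3-null DMSO (-4.13 ± 0.44, SE, limma, adjusted p = 1.17e-05). Reads of HLA genes can be split among near-identical relatives and alleles, so these counts are uncertain.

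Of the 5 antigen processing genes none was called higher and 1 was called lower in DMSO, where 20.4% and 4.04% of the tested chromosome 6 genes were. PSMB9, a catalytic subunit of the immunoproteasome, had 507, 484 and 542 in Cas9 control DMSO and 48, 48 and 55 in HK3-null DMSO, a difference of -3.35 ± 0.09 (SE, limma, adjusted p = 2.38e-10), and no chromosome 6 region lists it. TAP1, a peptide transporter, had 1034, 1016 and 1167 in Cas9 control DMSO and 735, 774 and 846 in HK3-null DMSO and differed by -0.45 ± 0.12 (SE, limma, adjusted p = 0.00873), within the 2-fold limit. TAPBP, which encodes tapasin, had 2330, 2145 and 2392 in Cas9 control DMSO and 3261, 3264 and 3381 in HK3-null DMSO and differed by 0.53 ± 0.05 (SE, limma, adjusted p = 2.43e-06), also within the limit. In the TNF cluster 5 of 6 tested genes were called higher in DMSO and all 6 in ATRA, with medians of 2.35 and 2.74. Over the tested chromosome 6 genes the shares called higher were 20.4% and 22.5%. LTB had 46, 47 and 33 in Cas9 control DMSO and 388, 432 and 423 in HK3-null DMSO (3.32 ± 0.17, SE, limma, adjusted p = 3.41e-08) and LST1 1844, 1887 and 1734 in Cas9 control DMSO and 4598, 4939 and 4741 in HK3-null DMSO (1.39 ± 0.06, SE, limma, adjusted p = 1.47e-08). Of 12 tested complement, heat shock and other class III genes 5 were called higher and none lower in DMSO. The chromosome 6 shares were 20.4% and 4.04%. Examples are NEU1, the lysosomal sialidase, at 1.63 ± 0.14 (SE, limma, adjusted p = 1.88e-06), and PBX2 at 1.21 ± 0.10 (SE, limma, adjusted p = 1.65e-06), although the region over the PBX2 promoter was not called.

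Of 33 tested regulators known in myeloid cells or leukemia, 13 were called higher and 4 lower in DMSO, with a median of 0.88, where 20.4% and 4.04% of the tested chromosome 6 genes were called. Of the 45 tested regions that list such a gene 36 were called higher and 2 lower, where the shares over all tested chromosome 6 regions were 72.5% and 10.2%. CCND3, cyclin D3, had 1297, 1137 and 1057 in Cas9 control DMSO and 4341, 4105 and 3833 in HK3-null DMSO (1.82 ± 0.08, SE, limma, adjusted p = 9.19e-09), and 4 of its 5 regions were called higher. JARID2, a partner of the Polycomb repressive complex, differed by 1.61 ± 0.14 (SE, limma, adjusted p = 2.91e-06), and TNFAIP3, an inhibitor of NF-kB signalling that no region lists, by 2.22 ± 0.20 (SE, limma, adjusted p = 3.08e-06). PRDM1, a transcriptional repressor active in lymphoid and myeloid differentiation, went from 174, 127 and 117 to 40, 43 and 42 (-1.72 ± 0.17, SE, limma, adjusted p = 6.89e-06). The kinase FYN was also lower, at -1.68 ± 0.41 (SE, limma, adjusted p = 0.00487). BACH2 was lower at -1.51 ± 0.42 (SE, limma, adjusted p = 0.01), on low counts of 8, 10 and 7 in Cas9 control DMSO and 2, 3 and 4 in HK3-null DMSO. In ATRA the BACH2 difference was 0.00 and was not called. MYB, with 7381, 8023 and 8381 in Cas9 control DMSO and 9469, 10514 and 12131 in HK3-null DMSO, was not called (0.43 ± 0.17, SE, limma, adjusted p = 0.0557).

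Of the 5 tested serpin and death-signalling genes of 6p25, 2 were called higher and none lower in DMSO. Over the tested chromosome 6 genes the shares were 20.4% and 4.04%. SERPINB1, the neutrophil elastase inhibitor, had 2459, 2227 and 2167 in Cas9 control DMSO and 8190, 7679 and 7341 in HK3-null DMSO (1.76 ± 0.07, SE, limma, adjusted p = 2.93e-09), and RIPK1, a kinase of cell death, differed by 0.99 ± 0.11 (SE, limma, adjusted p = 1.72e-05), just under the limit. TREM1, a myeloid activating receptor, was the only 1 of 3 tested genes of its cluster called higher in DMSO (2.30 ± 0.29, SE, limma, adjusted p = 4.78e-05). Among the vanins, VNN2 had 0, 0 and 0 in Cas9 control DMSO and 75, 68 and 89 in HK3-null DMSO and no region lists it.

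With ATRA, 20 of the 249 listed genes were called higher in Cas9 control (8.03%) and 11 lower (4.42%), against 6.84% and 2.78% of all tested genes. In HK3-null 38 were higher (15.3%) and 13 lower (5.22%), against 8.06% and 6.05%. TFEB, a master regulator of lysosomal genes, rose with ATRA from 11, 6 and 24 to 92, 184 and 196 in Cas9 control and from 27, 40 and 58 to 353, 704 and 850 in HK3-null (3.68 ± 0.52 and 3.91 ± 0.52). The only region that lists it showed no call with ATRA in either genotype, at -0.15 and 0.29. FLOT1, a membrane raft protein, rose by 3.34 ± 0.14 (SE, limma, adjusted p = 1.50e-08) in Cas9 control, and the kinase PIM1 by 1.97 ± 0.25 (SE, limma, adjusted p = 7.66e-05).

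FOXC1, a forkhead transcription factor, had 7, 12 and 10 in HK3-null DMSO and 619, 690 and 869 in HK3-null ATRA, against 3, 1 and 2 and 22, 23 and 36 in Cas9 control. Its rise in HK3-null was 6.25 ± 0.39 (SE, limma, adjusted p = 2.09e-07), and 1 of its 5 regions, chr6:1609707-1610263 at its start, rose with ATRA in HK3-null by 1.21 ± 0.40 (SE, limma, adjusted p = 0.0307). HIVEP2 rose with ATRA in both genotypes, by 1.32 ± 0.37 (SE, limma, adjusted p = 0.0132) in Cas9 control and by 3.25 ± 0.37 (SE, limma, adjusted p = 2.11e-05) in HK3-null. Falls with ATRA included FYN (-1.77 ± 0.41 in Cas9 control) and RPP40, a subunit of ribonuclease P (-1.28 ± 0.13). In HK3-null they included KLHL31 (-2.54 ± 0.36), DST (-2.08 ± 0.11) and F13A1, coagulation factor XIII (-2.06 ± 0.20).

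The interaction passed its threshold in 18 listed genes in the direction of a higher ATRA effect in HK3-null (7.23%) and in 13 in the other (5.22%), against 4.48% and 4.64% of all tested genes. With the replicate number as a block, which pairs the RNAseq libraries, these counts were 41 and 26. The shares over all tested genes with the block are not given here, so 41 and 26 have no like background. In the fit without the block, leaving out HK3-null DMSO replicate 1 gave 11 in place of the 18. ENPP4, DST and HIVEP2 above were among the 31.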

How the data were processed

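ATACseq was measured in 8 and RNAseq in 12 HL60 libraries. The authors aligned paired reads to hg38 with bwa mem, kept unique reads without duplicates, called peaks with MACS2 and merged them over libraries, and the deposited signal of a region is the mean number of extended fragments over 32 bp bins after all libraries were reduced to an equal number of tags. The deposited RNAseq values are log2 of whole-number counts that the authors had scaled between libraries, with 0 entered as the log2 of 0.001. The methods name RPKM before the logarithm, but whole numbers such as those deposited are not RPKM. The authors named DESeq2 among their tools, and it was not used here. No source used here names the RNAseq aligner or counter. The unit was read from the values, since all of them (100.0%) are whole numbers, within the rounding of the printed decimals, once the logarithm is undone.

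The members and gene lists were chosen with earlier results of these data known. Regions were compared as log2(signal + 1) for the 6214 of 8286 whose mean signal was above the percentile 25 (a signal of 17.1), and genes as log2 counts for the 13256 with a group mean log2 above 3. The 330 RNAseq rows without a gene name (0.00505% to 0.00926% of a library's counts) were left out. limma 3.58.1 (R 4.3.3, lmFit and eBayes with trend) was fitted to the 4 groups of each assay over all regions or genes of the table, with Benjamini-Hochberg adjustment, and tested on simulated data. A call needed an adjusted p below 0.05 and at least 1.5-fold for regions or 2-fold for genes, with no fold limit for the interaction. A difference on the log2(signal + 1) scale understates the change of low signals. Because the HK3-null and Cas9 control ATRA libraries had selected the regions, the genotype difference in ATRA carries no test here.

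Regions and genes named were the widest calls of each comparison, the widest falls, the regions listing HLA or class III genes, and the genes of the widest regions. The lists were HLA class I and class II, antigen processing, the TNF cluster, other class III genes, histones, the TREM cluster, vanins, serpin and death-signalling genes of 6p25, and regulators known in myeloid cells or leukemia. Same-numbered RNAseq libraries deviated together from their group means in all 18 pairs (r from 0.178 to 0.631, over 10667 genes), so the numbers pair them. For ATACseq they did not (r from -0.209 to 0.054). The RNAseq p-values and calls are from the fit without this pairing unless the replicate block is named. Alternatives were another centring, pseudocount, filter, bin size or quantile normalization, the replicate block, and leaving out each library. Some marker genes of other blood lineages are not reported here. Promoter sequences came from RefSeq (GRCh38.p14) and exons from GENCODE v44, both of the build of the files. Figures were drawn with matplotlib 3.10.9.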

Additional observations from a re-analysis of the deposited data

Results flagged for a closer look

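The difference between the ATRA effects of the genotypes was tested as an interaction, and these results passed it. Among the ATACseq regions of chromosome 6 it passed in 1 region with a higher effect in HK3-null, chr6:113486117-113486667, with an interaction of 2.0 on the log2(signal + 1) scale. Among the listed genes it passed in 18 with a higher and 13 with a lower effect in HK3-null.

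Of the genes named in the report, FOXC1 had an interaction of 2.40, with 3, 1 and 2 counts in Cas9 control DMSO, 22, 23 and 36 in Cas9 control ATRA, 7, 12 and 10 in HK3-null DMSO and 619, 690 and 869 in HK3-null ATRA. HIVEP2 had 1.93, with a rise in both genotypes. ENPP4 had -1.80, with 172, 158 and 176 counts in Cas9 control ATRA and 2, 3 and 2 in HK3-null ATRA. DST had -1.38, with a fall in both genotypes. FLOT1 had -1.10, with 183, 112 and 147 against 1567, 1362 and 1454 in Cas9 control and 925, 883 and 801 against 4329, 4173 and 3826 in HK3-null, DMSO against ATRA. F13A1 had -1.07, with 144, 135 and 147 against 87, 52 and 81 in Cas9 control and 217, 222 and 205 against 59, 55 and 42 in HK3-null. The fitted value of 9.97 for HIST1H3I rests on HK3-null DMSO libraries at 0, 0 and 0 and is no fold. The calls of F13A1, HIVEP2 and FOXC1 were lost in 10, 7 and 4 of the fits without 1 library.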

How the results depend on the processing

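The DMSO genotype difference kept its direction and its counts within 1.5 times under each alternative run. With each library centred on the autosomes other than 5, 6, 8, 13 and 15 its median was 1.32 (1.14 as reported), and the ATRA effects were called in 27 higher and 87 lower regions in Cas9 control (median -0.08) and in 39 and 50 in HK3-null, with 0 regions higher in the interaction (median 0.14). With log2(signal + 5) the genotype median in ATRA was 1.29 and the interaction was higher in 2 regions, and without the filter on low signal in 0. Quantile normalization of the RNAseq gave a genotype median in ATRA of 0.75 and an ATRA median in HK3-null of 0.09. The replicate block for RNAseq gave 41 higher and 26 lower genes in the interaction and moved no other count of calls by over 1.5 times. The shares over all tested genes with the block are not given here. Among the named and listed genes the block gained 15 calls in the interaction, such as TNF, JARID2, PIM1 and RPP40. It also gained 1 in the DMSO genotype difference (CDKN1A) and lost 1 in ATRA (HIST1H3I). CDKN1A had 124, 3 and 0 counts in Cas9 control DMSO and 104, 113 and 107 in HK3-null DMSO, so its genotypes overlapped. For ATACseq, whose libraries share only a number, the block gave 381 higher and 55 lower regions in the DMSO genotype difference, and crossed numbers, chosen after seeing the data, 15 higher and 115 lower for ATRA in Cas9 control. The cause of these changes was not tested.

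Leaving out 1 library at a time gave a genotype median in ATRA of 1.33 to 1.74. For ATRA in Cas9 control it gave 5 to 14 regions higher and 47 to 148 lower (median -0.51 to -0.12), and in HK3-null 9 to 31 higher and 13 to 55 lower. The interaction had 0 to 10 regions higher and 0 to 1 lower (median 0.13 to 0.53), and in the listed genes 11 to 17 higher. The RNAseq genotype median in DMSO was 0.67 to 0.74. A lone library of a group was assumed to vary like the others. Of the named calls, 6 of 32 for the DMSO genotype difference in ATACseq and 5 of 23 in RNAseq were lost in at least 1 such fit, as were 10 of 19 for ATRA in Cas9 control and 5 of 14 in HK3-null. No named call changed direction under these alternatives. The ATACseq depth is unknown, so the counting error of low signals could not be given.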
